A study of Homo sapiens with 6 samples.

Results

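Among 58174 genes measured in each sample, 8 chemokine genes were followed across UBC9 knockdown in T24 cells, an established human bladder cancer line. They were taken by gene symbol and comprise the CXCR3 ligands CXCL9, CXCL10 and CXCL11, the CXCR6 ligand CXCL16, the CC chemokines CCL2, CCL5 and CCL20, and the CX3C chemokine CX3CL1. Poly(A) RNA was sequenced from 3 samples labelled shRNA-NC, in which the cells stably expressed a negative control shRNA, and 3 samples labelled shRNA-UBC9, in which they stably expressed an shRNA against UBC9, the E2 enzyme that attaches the small protein SUMO to its targets. All 6 samples therefore share the T24 background and a stably expressed shRNA, and no source says whether the 3 samples of a group came from separate cultures, so p-values measure the spread between these samples, which may be technical. A gene's level was given as RPKM, its reads scaled by gene length and by library size, so levels of different genes can be compared.

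Chemokines are small secreted proteins that bind receptors on leukocytes and draw those cells along a gradient. CXCL9, CXCL10 and CXCL11 share the receptor CXCR3 on activated T cells and NK cells, and their genes are textbook targets of interferon, acting through STAT and IRF factors, with NF-kappaB as a partner. CCL5 acts on several CC receptors of T cells and other leukocytes, CCL2 on the monocyte receptor CCR2, and CCL20 on CCR6 of dendritic cells and T cell subsets. CXCL16 and CX3CL1 are made as membrane-bound proteins on a mucin-like stalk and are cut free by the proteases ADAM10 and ADAM17.

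The libraries were of similar size, with scaling totals of 28219032 to 36058872 reads recovered from the steps between low RPKM values. The epithelial keratins KRT7, KRT8, KRT18 and KRT19 were abundant in both groups but lower in every shRNA-UBC9 sample than in any shRNA-NC sample. KRT5 and KRT20 were at 0 in all 6 samples, and CDH1 and the 4 uroplakin genes did not reach the level tested. EPCAM was low, at 0.41 to 0.99 RPKM in shRNA-NC and 0.73 to 2.51 RPKM in shRNA-UBC9. Calls required an adjusted p below 0.05 (limma) and an absolute log2 fold change above 1, which 2.70% of all 12428 tested genes passed downwards and 5.20% upwards. Of 16 epithelial and urothelial markers 9 were tested and 4 were down-regulated, CDH5 of 3 endothelial markers was tested and down-regulated, and none of 3 fibroblast markers was tested. Of 17 leukocyte marker genes, 2 passed the filter (CD14 and CD68, of which CD68 rose) and the rest were at or near 0. Reads of CD3D, CD3E, CD2 and PTPRC, T cell and leukocyte genes singled out after their values were seen, summed to 0, 54 and 52 in shRNA-NC replicates 1 to 3 and to 56, 60 and 0 in shRNA-UBC9 replicates 1 to 3. Their part in the results was not tested, and values without the libraries that carry or lack them are given where they bear on a chemokine. In a bulk sample, expression in a few cells and a low level in all cells cannot be told apart.

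CXCL9, CXCL10 and CXCL11 lie side by side on the reverse strand of chromosome 4, at chr4:76001275-76007509, chr4:76021118-76023497 and chr4:76033682-76036070 (GRCh38.p14, RefSeq). The 250 bases before each start are shown because these neighbours share a receptor and an inducer yet reached very different levels in the samples described here, and CCL20 at chr2:227813842-227817556 (forward strand) is shown because its level changed most among the 8 genes. Sequences are from RefSeq, 5′ to 3′ on the strand of the gene, with matches to 4 short motifs in capitals.
CXCL9, chr4:76007510-76007759: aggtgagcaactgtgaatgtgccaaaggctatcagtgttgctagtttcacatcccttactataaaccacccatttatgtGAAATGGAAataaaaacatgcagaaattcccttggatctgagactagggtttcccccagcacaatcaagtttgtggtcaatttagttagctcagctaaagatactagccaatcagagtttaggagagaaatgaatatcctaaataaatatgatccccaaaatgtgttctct
CXCL10, chr4:76023498-76023747: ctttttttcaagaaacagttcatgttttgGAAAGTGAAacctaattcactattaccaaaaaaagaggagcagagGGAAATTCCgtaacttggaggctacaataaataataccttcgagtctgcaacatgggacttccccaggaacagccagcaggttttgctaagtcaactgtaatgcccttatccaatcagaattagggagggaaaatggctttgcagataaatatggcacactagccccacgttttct
CXCL11, chr4:76036071-76036320: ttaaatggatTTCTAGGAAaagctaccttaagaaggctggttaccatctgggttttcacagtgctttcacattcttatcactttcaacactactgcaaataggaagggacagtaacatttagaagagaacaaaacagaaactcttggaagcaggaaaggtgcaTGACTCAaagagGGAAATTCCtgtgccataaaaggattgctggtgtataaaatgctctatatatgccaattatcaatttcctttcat
CCL20, chr2:227813592-227813841: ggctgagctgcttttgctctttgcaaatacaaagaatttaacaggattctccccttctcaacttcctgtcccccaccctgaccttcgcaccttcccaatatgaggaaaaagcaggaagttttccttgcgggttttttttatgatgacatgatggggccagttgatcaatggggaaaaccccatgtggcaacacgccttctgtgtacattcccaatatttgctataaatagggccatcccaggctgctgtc

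Motifs were searched on both strands of the 300 bases from 250 before to 50 after the start, a window that the RefSeq table held for 4 of the 8 genes. The core of the interferon-stimulated response element, GAAANNGAA, was found 171 bases before the start of CXCL9 and 221 bases before that of CXCL10, and 8.11% of all 35116 promoters in the table hold it. The NF-kappaB letters GGANNTTCC, held by 4.56% of promoters, lay 176 bases before CXCL10 and 75 before CXCL11, with the same 9 letters in both. The STAT letters TTCNNNGAA lay 240 bases before CXCL11 and at a second place after its start (7.66% of promoters), and the AP-1 letters TGANTCA lay 87 bases before it (7.71% of promoters). None of these 4 patterns matched in the CCL20 window, where other forms of the same sites were not searched for. A match describes the letters and is not evidence of binding, and the lack of a match to these 4 patterns does not show that a site is absent.

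Of the 8 genes, 5 reached an RPKM of 0.5 in at least 3 samples and were tested, and 4 of these, CXCL10, CXCL11, CXCL16 and CCL20, were up-regulated in shRNA-UBC9 at an adjusted p below 0.05 and an absolute log2 fold change above 1. Over all 12428 tested genes, 5.20% were up-regulated and 2.70% down-regulated by the same rule. CCL5 was higher in shRNA-UBC9 without passing it, and CXCL9, CX3CL1 and CCL2 were too low to test. Each of the 5 tested genes was higher in every shRNA-UBC9 sample than in any shRNA-NC sample, as were 25.7% of all tested genes. CXCL10, CXCL11 and CCL20 could pass the filter through the shRNA-UBC9 samples alone, so these counts describe the genes and carry no test.

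**Figure D1:**
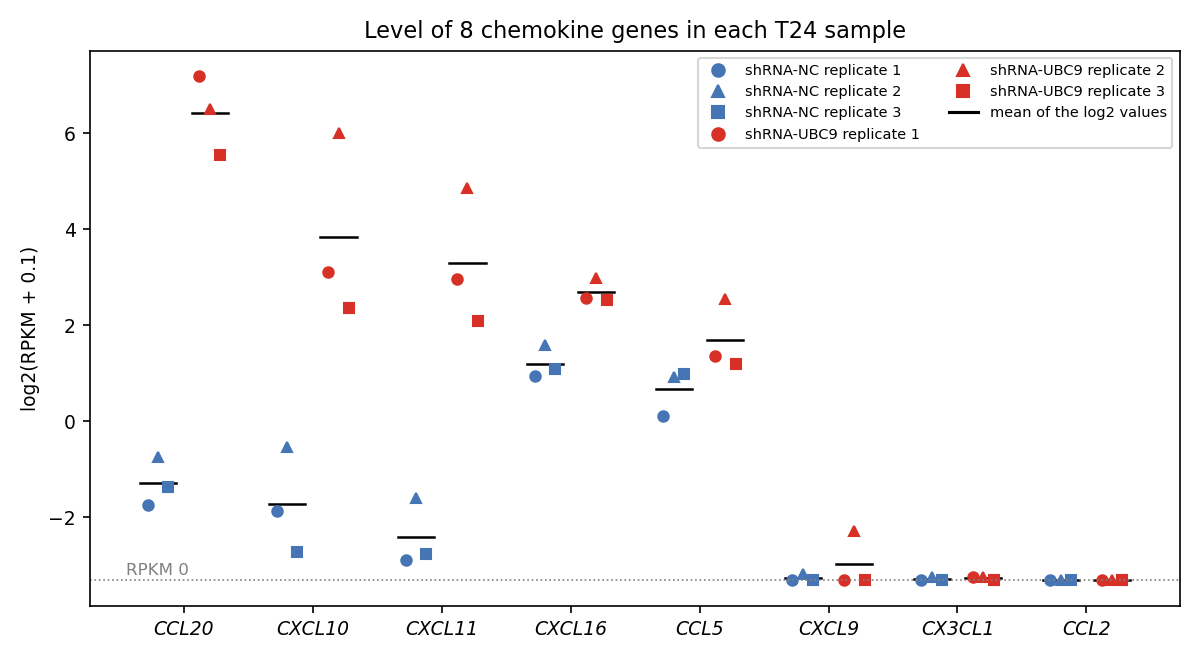
Level of the 8 chemokine genes on the vertical axis, log2(RPKM + 0.1), for 3 shRNA-NC samples (blue) and 3 shRNA-UBC9 samples (red), with the replicate number as the symbol and the mean of the log2 values as a line. CCL20, CXCL10 and CXCL11 move from near the dotted line of RPKM 0 to the highest means of the set. In shRNA-UBC9 replicate 3, though, CXCL16 lies above CXCL10 and CXCL11. CXCL16 and CCL5 start higher and move less, and CXCL9, CX3CL1 and CCL2 stay at the bottom.

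The order of the genes changed between the groups. By mean RPKM in shRNA-NC, CXCL16 (2.24) came first, then CCL5 (1.55), CCL20 (0.327), CXCL10 (0.270) and CXCL11 (0.103), followed by CXCL9, CX3CL1 and CCL2 near or at 0. The sample ranges of CXCL16 and CCL5 overlapped, as did those of CCL20, CXCL10 and CXCL11, but CCL5 and CCL20 did not overlap. In shRNA-UBC9 the order was CCL20 (94.9), CXCL10 (26.1), CXCL11 (13.6), CXCL16 (6.43) and CCL5 (3.46). There each gene's range overlapped that of the next, down to CCL5, which stood clear of CXCL9.

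CXCL10, the interferon-inducible ligand also known as IP-10, rose from a trace to a clear signal after knockdown. Its RPKM was 0.171, 0.589 and 0.0503 in shRNA-NC replicates 1 to 3 (6, 24 and 2 reads) and 8.54, 64.6 and 5.06 in shRNA-UBC9 replicates 1 to 3 (362, 2677 and 168 reads). Replicate 2 was the highest sample in each group, and the groups did not overlap. The mean went from 0.270 ± 0.283 to 26.1 ± 33.4 RPKM (SD, n = 3), and the log2 fold change was 5.55 (SE 0.898, 95% interval 3.49 to 7.61, adjusted p = 0.00242, limma). The SD within shRNA-UBC9 was larger than the mean, with replicate 2 far above the others. Leaving out shRNA-UBC9 replicate 2 gave a log2 fold change of 4.46, leaving out shRNA-UBC9 replicate 3 gave 6.28, and leaving out shRNA-NC replicate 2 gave 6.14. CXCL10 ranked 562 among all genes of shRNA-UBC9 replicate 2 and between 4885 and 6879 in the other samples of that group.

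CXCL11, the ligand that binds CXCR3 most tightly, followed the same course. It gave 0.0351, 0.227 and 0.0465 RPKM in shRNA-NC replicates 1 to 3 (2, 15 and 3 reads) and 7.69, 28.8 and 4.16 RPKM in shRNA-UBC9 replicates 1 to 3 (529, 1938 and 224 reads). Again replicate 2 was highest in both groups, shRNA-UBC9 replicate 3 was the lowest knockdown sample, and no values overlapped. The mean went from 0.103 ± 0.108 to 13.6 ± 13.3 RPKM (SD, n = 3), with a log2 fold change of 5.73 (SE 0.645, 95% interval 4.25 to 7.21, adjusted p = 0.000495). It was 4.95 without shRNA-UBC9 replicate 2 and 6.33 without shRNA-UBC9 replicate 3. For CXCL10 and CXCL11 the shRNA-NC values lie near the 0.1 RPKM added before the logarithm. With 1 RPKM added in its place the log2 fold changes were 3.64 and 3.33, and both genes stayed up-regulated.

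CXCL9, the third CXCR3 ligand, remained at the detection limit. It was listed at 0 in 4 samples, with 1 read in shRNA-NC replicate 2 (0.0105 RPKM) and 10 reads in shRNA-UBC9 replicate 2 (0.104 RPKM). The only sample with more than 1 read was thus the one in which CXCL10 and CXCL11 were also highest. Scaled by library size, the reads of the groups stood in a ratio of 9.88, with an exact 95% interval of 1.41 to 429 that covers counting error only, and the groups overlapped, with a two-sided exact permutation p of 1.0. With 3 against 3 samples this test cannot go below 0.1, the value each of the 5 tested genes reached. The genes that flank the cluster, SDAD1 and NUP54 (chosen by position, after values were seen), had log2 fold changes of 0.17 (SE 0.122, adjusted p = 0.311) and -0.08 (SE 0.111, adjusted p = 0.61). ART3, which spans CXCL10 and CXCL11, had 0, 0 and 0 reads in shRNA-NC and 1, 5 and 0 in shRNA-UBC9.

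The genes with patterns most like those of CXCL10 and CXCL11 included each other. Likeness was the root mean square difference of log2(RPKM + 0.1) over the 6 samples after each gene was centred on its mean. It therefore reflects the size of the change between the groups as well as the order of samples within them. CXCL11 was the closest of all tested genes to CXCL10, at a difference of 0.47, followed by RSAD2 (0.65), which encodes the antiviral enzyme viperin, and CMPK2 (0.88), a mitochondrial nucleotide kinase next to it in the genome. For CXCL11 the next after CXCL10 were RSAD2 (0.52) and HSH2D (0.56), an adaptor of immune signalling. RSAD2 measured 0.284, 0.842 and 0.263 RPKM in shRNA-NC and 9.72, 34.5 and 7.69 RPKM in shRNA-UBC9. Thus RSAD2, like both chemokines, had replicate 2 as its highest sample in each group.

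**Figure D2:**
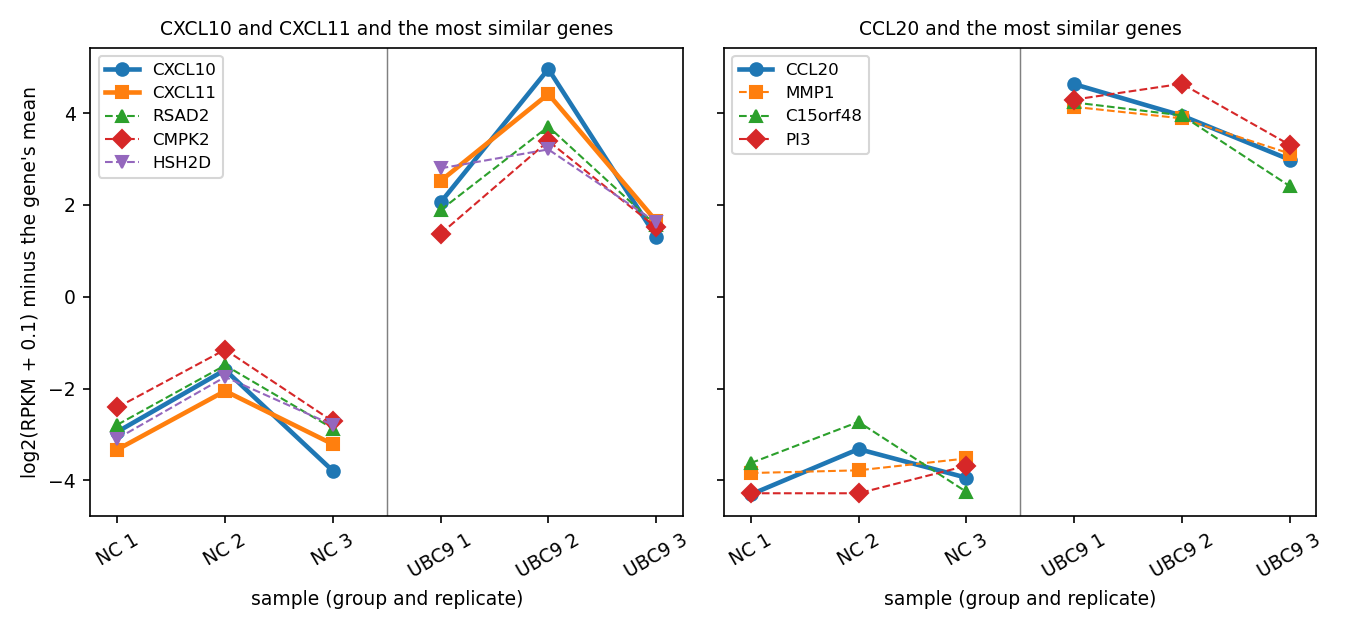
Centred log2(RPKM + 0.1) on the vertical axis for the 6 samples on the horizontal axis, with CXCL10 and CXCL11 and their nearest genes on the left and CCL20 and its nearest genes on the right (chemokines as thick lines). On the left the genes peak in replicate 2 of each group. On the right CCL20, MMP1 and C15orf48 are, within shRNA-UBC9, highest in replicate 1 and lowest in replicate 3, while PI3 is highest in replicate 2. Within shRNA-NC, CCL20 and C15orf48 are highest in replicate 2, as the genes on the left are.

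A list of 22 interferon-stimulated genes gave the wider setting. Of these, 19 were up-regulated, none was down-regulated and 3 (IFIT2, OASL and HERC5) did not pass, while 5.20% of all tested genes were up-regulated. The median log2 fold change of the 22 genes was 2.77, against 0.005 over all tested genes. Their mean log2(RPKM + 0.1) was 2.62, 3.48 and 2.91 in shRNA-NC replicates 1 to 3 and 5.45, 6.50 and 5.32 in shRNA-UBC9 replicates 1 to 3. Replicate 2 was the highest sample of both groups for 16 of the 22 genes, for 3 of the 5 tested chemokines (CXCL10, CXCL11 and CXCL16) and for 14.8% of all tested genes. When replicate 2 of both groups was left out, the log2 fold change was 5.05 for CXCL10 (adjusted p = 0.000527) and 5.36 for CXCL11 (adjusted p = 0.00031).

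Among 16 genes of interferon signalling, 14 were tested and 4 were up-regulated, while 5.20% of all tested genes were. The 4 included IFNL1, a type III interferon, and the transcription factors IRF7 and IRF9. The median log2 fold change of the list was 0.51. IRF7, which drives interferon transcription, went from between 13.05 and 16.02 RPKM to between 63.8 and 111.8 RPKM (log2 fold change 2.52, SE 0.191, adjusted p = 8.33e-05). IFNL1 had 1, 2 and 2 reads in shRNA-NC and 21, 72 and 15 reads in shRNA-UBC9, a ratio of mean RPKM of 21.0. It passed the filter through the shRNA-UBC9 samples alone and its control values lie below the 0.1 RPKM added, so its call is given as a description. IFNB1, the type I interferon gene, was below the filter, with no read in shRNA-NC and 15, 24 and 5 reads in shRNA-UBC9. For IFNB1 and IFNL1, as for CXCL10 and CXCL11, shRNA-UBC9 replicate 2 was highest and replicate 3 lowest. IFNG, the classical inducer of CXCL9, was listed at 0 in all 6 samples. IRF1, an early interferon-gamma target, had a log2 fold change of -0.46 (SE 0.185, adjusted p = 0.0834) and did not pass.

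CXCL16 (chr17:4733533-4739928), the membrane-bound ligand of CXCR6, was the most expressed of the 8 genes in control cells and rose moderately and evenly. It measured 1.81, 2.89 and 2.02 RPKM in shRNA-NC replicates 1 to 3 (151, 280 and 191 reads) and 5.85, 7.82 and 5.63 RPKM in shRNA-UBC9 replicates 1 to 3 (589, 770 and 444 reads). Every knockdown sample lay above every control sample, and replicate 2 was highest in each group. The mean went from 2.24 ± 0.574 to 6.43 ± 1.21 RPKM (SD, n = 3), a ratio of 2.87, and the log2 fold change was 1.49 (SE 0.19, 95% interval 1.06 to 1.93, adjusted p = 0.000838). The 3 genes with the most similar pattern were IFITM3 (difference 0.11), an antiviral membrane protein, SAMHD1 (0.13), a dNTP-degrading restriction factor, and PLPP3 (0.13), a lipid phosphatase. IFITM3 stood at 214.7, 309.5 and 210.5 RPKM in shRNA-NC and at 604.1, 973.5 and 669.4 RPKM in shRNA-UBC9, with a log2 fold change of 1.60 close to that of CXCL16.

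CX3CL1 (chr16:57372490-57385044), the other chemokine made on a membrane stalk, was essentially undetected. It had 1 read in each of shRNA-NC replicate 2 and shRNA-UBC9 replicates 1 and 2 and none in the other samples, so no fold is given. The proteases that shed CXCL16 and CX3CL1 were expressed in both groups. ADAM10 ranged from 8.38 to 9.50 RPKM in shRNA-NC and from 8.85 to 9.45 RPKM in shRNA-UBC9 (log2 fold change 0.02, SE 0.0884, adjusted p = 0.877). ADAM17 ranged from 7.73 to 9.89 RPKM and from 5.67 to 7.67 RPKM, and its log2 fold change of -0.42 (SE 0.136, adjusted p = 0.0423) stayed short of the fold threshold. TIMP3, an inhibitor of ADAM17, was the 1 gene of 5 tested in the list of processing enzymes and regulators to be called, and it went from between 6.285 and 8.995 RPKM to between 0.814 and 1.54 RPKM (log2 fold change -2.77, SE 0.229, adjusted p = 0.000119). RHBDF1, which helps carry ADAM17 to the surface, had a log2 fold change of 0.76 (SE 0.141, adjusted p = 0.00443), below the fold threshold.

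CCL20, the CCR6 ligand, changed most. It measured 0.200, 0.495 and 0.286 RPKM in shRNA-NC replicates 1 to 3 (8, 23 and 13 reads) and 146.7, 91.2 and 46.9 RPKM in shRNA-UBC9 replicates 1 to 3 (7105, 4314 and 1777 reads). The lowest knockdown sample was far above the highest control sample, and here replicate 1, not replicate 2, was highest in shRNA-UBC9. The mean went from 0.327 ± 0.152 to 94.9 ± 50.02 RPKM (SD, n = 3), and the log2 fold change was 7.71 (SE 0.395, 95% interval 6.80 to 8.62, adjusted p = 1.41e-05), the 4th largest of all tested genes. Its control level also rests on few reads, and with 1 RPKM added before the logarithm the log2 fold change was 6.04. Among all genes of a sample CCL20 ranked between 12237 and 13519 in shRNA-NC and was 203, 373 and 826 in the shRNA-UBC9 samples.

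The genes most like CCL20 were not those most like CXCL10 and CXCL11, but genes of unlike fold change cannot be close by this measure. They were MMP1 (difference 0.38), an interstitial collagenase, C15orf48 (0.48), a mitochondrial protein, and PI3 (0.53), the epithelial elastase inhibitor elafin. MMP1 measured 0.221, 0.235 and 0.300 RPKM in shRNA-NC and 80.7, 67.8 and 39.8 RPKM in shRNA-UBC9, highest in replicate 1 and lowest in replicate 3, as CCL20 was. Like CCL20, MMP1, C15orf48 and PI3 passed the filter through the shRNA-UBC9 samples alone.

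CCL5 (chr17:35871491-35880360), also called RANTES, was present in control cells and differed less between the groups. It measured 0.975, 1.795 and 1.876 RPKM in shRNA-NC replicates 1 to 3 (44, 94 and 96 reads) and 2.476, 5.725 and 2.18 RPKM in shRNA-UBC9 replicates 1 to 3 (135, 305 and 93 reads). The groups did not overlap, but shRNA-UBC9 replicate 3 was close to the upper control samples and replicate 2 stood alone. The mean went from 1.55 ± 0.499 to 3.46 ± 1.97 RPKM (SD, n = 3), and the log2 fold change of 1.03 (SE 0.368, 95% interval 0.19 to 1.87, adjusted p = 0.0586) did not pass. Blocking on replicate number gave an adjusted p of 0.0341, leaving out shRNA-UBC9 replicate 3 gave 0.031 with a log2 fold change of 1.28, and over all alternatives the adjusted p ran from 0.031 to 0.184. Genes of most similar pattern were TLR3 (difference 0.218), the sensor of double-stranded RNA, C11orf52 (0.219) and SMPDL3B (0.223), of which SMPDL3B was up-regulated.

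CCL5 is also made by T cells and NK cells, and within each group its lowest value came from the library with no read of CD3D, CD3E, CD2 or PTPRC. These libraries, shRNA-NC replicate 1 and shRNA-UBC9 replicate 3, gave 0.975 and 2.18 RPKM of CCL5, 1 sample in each group and therefore without a test. The other 4 libraries, with 52 to 60 reads of these marker genes, gave 1.795 and 1.876 RPKM of CCL5 in shRNA-NC and 2.476 and 5.725 RPKM in shRNA-UBC9. Their log2 fold change was 1.001 (SE 0.368, adjusted p = 0.101). Over all 17 leukocyte markers the summed level was 2.64 to 4.66 RPKM in shRNA-NC and 20.5 to 50.2 RPKM in shRNA-UBC9, and without CD68 it was 0.774 to 1.49 and 0.851 to 1.93 RPKM. MS4A1, a B cell marker, was at 0 in all samples. The part of leukocyte transcripts in the CCL5 values was not tested. In the same 4 libraries the log2 fold changes of CXCL10, CXCL11, CXCL16 and CCL20 were 6.20, 6.10, 1.45 and 7.92, with adjusted p of 0.0148 or less.

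**Figure D3:**
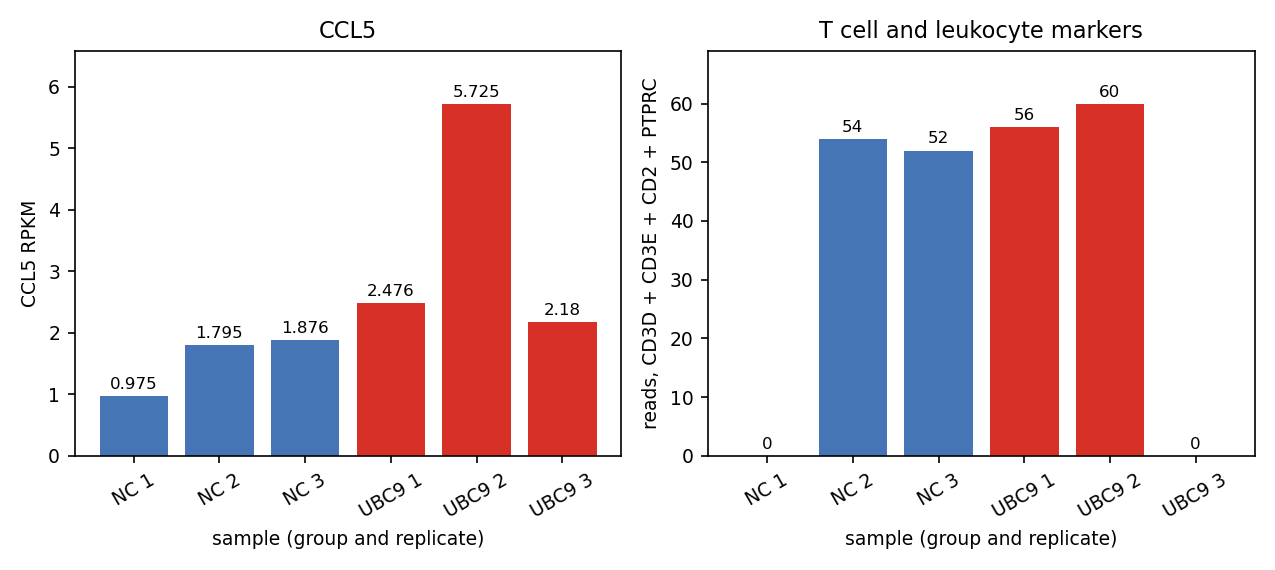
CCL5 in RPKM (left) and the summed reads of CD3D, CD3E, CD2 and PTPRC (right) for 3 shRNA-NC samples in blue and 3 shRNA-UBC9 samples in red, 1 bar per sample. The 2 libraries with 0 marker reads hold the lowest CCL5 value of their own group, as they do for CXCL11, CXCL16 and CCL20. For CCL5, shRNA-UBC9 replicate 2 exceeds the rest at 5.725 RPKM.

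CCL2 (chr17:34255285-34257203), the monocyte attractant MCP-1, was listed at 0 in all 6 samples, with no read in any library. For a count of 0, the 95% Poisson interval reaches 3.69 reads. A level of 3 reads would be 0.0832 to 0.106 RPM depending on the sample (RPM, reads scaled to library size without gene length). Beyond the 8 genes, a list of 29 other chemokine ligands held none that passed the filter, and 19 of them were at 0 in every sample. Of all 58174 genes, 12428 passed the filter and 35278 were at 0 in every sample. CCL28, a mucosal chemokine, was the highest of that list at 0.274 to 0.307 RPKM in shRNA-NC and 0.306 to 0.460 RPKM in shRNA-UBC9, and its groups overlapped narrowly.

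Receptors for the 8 ligands were undetected at this depth or at trace level, and none of 8 passed the filter. CXCR3, CCR3 and CCR6 were listed at 0 in all 6 samples. CXCR6, the receptor of CXCL16, had 4, 8 and 4 reads in shRNA-NC and 17, 16 and 11 reads in shRNA-UBC9, without overlap between the groups. In a fit without the filter its log2 fold change was 0.61 (SE 0.142, adjusted p = 0.0307). CCRL2, an atypical receptor that presents chemerin, had 6, 13 and 12 reads against 59, 36 and 23 reads, and a log2 fold change of 1.22 (SE 0.264, adjusted p = 0.0232) in the same fit. The shRNA-NC values of CXCR6 and CCRL2 lie near the 0.1 RPKM added before the logarithm, which shrinks these fold changes. Their ratios of mean RPKM were 2.72 and 3.73.

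Set beside the neutrophil-attracting CXCR2 ligands, the 8 genes overlapped in level and in change with part of that family. Of 7 CXCR2 ligands 6 were tested and all 6 were up-regulated, while 5.20% of all tested genes were. The log2 fold changes of the 6 ran from 2.03 (CXCL6) to 5.46 (CXCL3), whereas those of the 5 tested genes here spanned 1.03 to 7.71. In shRNA-UBC9, CXCL8 (1244 to 1542 RPKM) and CXCL1 (1343 to 2212 RPKM) were above every value of CCL20, while CXCL2 (93.35 to 136.7 RPKM), CXCL3 (73.8 to 115.0 RPKM) and CXCL6 (98.1 to 147.5 RPKM) overlapped it. CXCL5 measured 0.547 to 1.47 RPKM in shRNA-NC and 35.1 to 49.6 RPKM in shRNA-UBC9, so its control values lay below those of CXCL16. PPBP, like CCL2, was listed at 0 in all samples. The difference between the lists was not tested. In NF-kappaB signalling, which serves both kinds of chemokine, 8 of 16 tested genes were up-regulated and none was down-regulated, against 5.20% and 2.70% of all tested genes. The median log2 fold change of this list was 1.13. The 8 were RELB, NFKB2, NFKBIA, NFKBIZ, TNFAIP3, TNF, IL1A and IL1B. IL1B, a cytokine that induces CCL20 in epithelial cells, ranged from 22.3 to 32.4 RPKM in shRNA-NC and from 402.5 to 512.8 RPKM in shRNA-UBC9 (log2 fold change 4.09, SE 0.151, adjusted p = 6.93e-06).

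**Figure D4:**
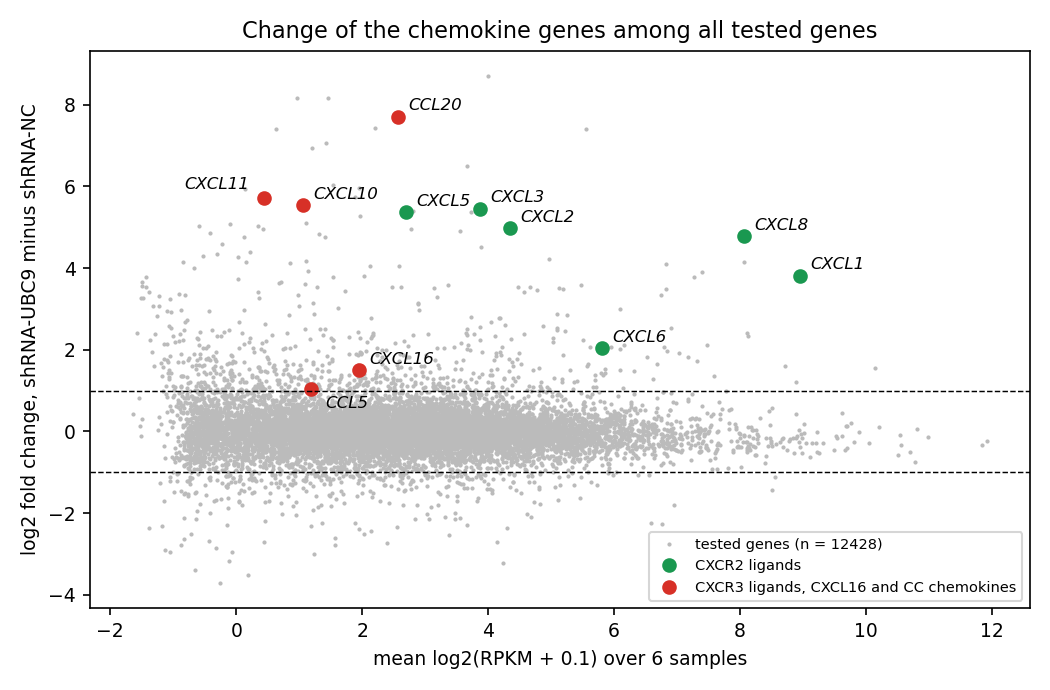
Log2 fold change (shRNA-UBC9 minus shRNA-NC) on the vertical axis against the mean log2(RPKM + 0.1) of the 6 samples on the horizontal axis for 12428 tested genes (grey), the 5 tested chemokines (red) and 6 CXCR2 ligands (green), with dashed lines at the fold threshold of 1. CCL20, CXCL11 and CXCL10 lie near the top edge at middle to low levels, the CXCR2 ligands lie further right, and CCL5 sits at the threshold.

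The calls of CXCL10, CXCL11, CXCL16 and CCL20 held in all 17 alternative analyses, while the size of the change depended on them. These analyses reuse the same samples, and CXCL10, CXCL11 and CCL20 could pass the filter through shRNA-UBC9 alone. The unchanged calls are therefore a description and no independent support. CXCL10 ranged from 3.64 to 6.28, CXCL11 from 3.33 to 6.91, CXCL16 from 1.2 to 1.68 and CCL20 from 6.04 to 8.14 on the log2 scale. CCL5 kept its direction in all 17, from 0.61 to 1.28, and its adjusted p fell below 0.05 with a log2 fold change above 1 in 2 of them. At an unadjusted p below 0.05 in place of the adjusted one, CCL5 also passed, so all 5 tested genes were called. By that rule 661 of all 12428 tested genes were up-regulated and 342 down-regulated.

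**Figure D5:**
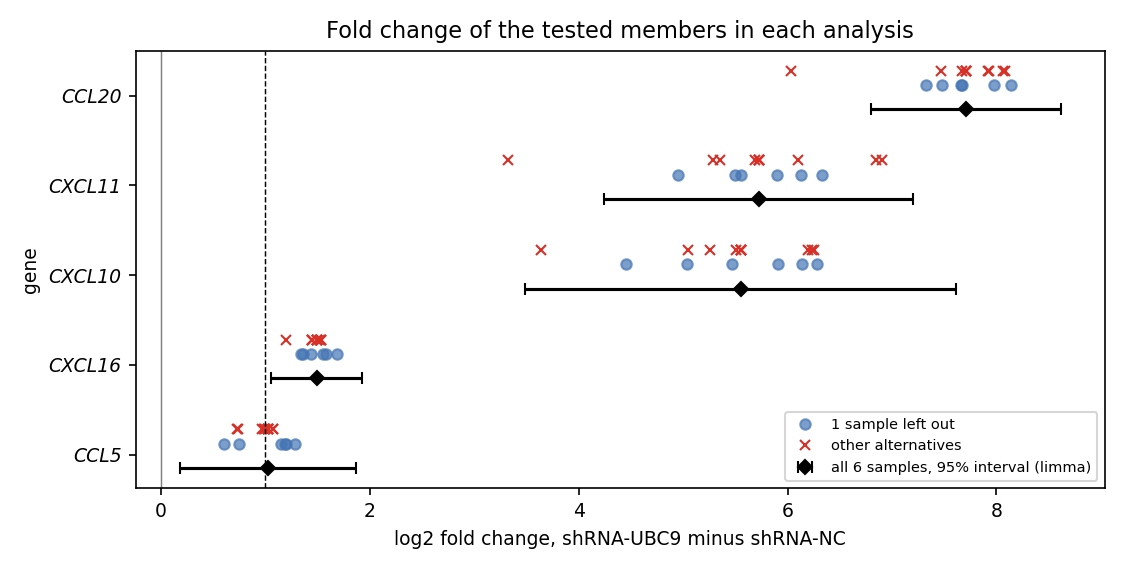
Log2 fold change of the 5 tested chemokines on the horizontal axis, with the analysis of all 6 samples and its 95% interval (black), fits without 1 sample (blue) and other alternatives (red), and a dashed line at the fold threshold of 1. The points of CCL5 lie on both sides of the threshold, and those of the other genes lie to its right.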

How the data were processed

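Per the labels, poly(A) RNA was prepared with an Illumina TruSeq kit, and the authors mapped reads to GRCh38 with CLC Biomedical Genomics Workbench 4 and deposited 1 RPKM value per gene and sample. The gene annotation is not given in the sources used here. The deposited RPKM values were tested as log2(RPKM + 0.1) with limma 3.58.1 (lmFit, eBayes with an intensity trend) in R 4.3.3, keeping 12428 genes that reached 0.5 RPKM in 3 or more of the 6 samples. Adjusted p-values follow Benjamini-Hochberg over all tested genes. Calls required an adjusted p below 0.05 and an absolute log2 fold change above 1. The fit was tested on simulated data first.

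Because RPKM moves in steps of 1 read, each library's scaling total was found from 190 to 292 genes at 1 read and GENCODE 44 exon lengths. All 12428 tested genes then gave whole reads in every sample (tolerance 0.0001 at low counts, at most 0.05), and voom on these reads was an added alternative. Read counts carry counting error only where intervals are given.

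The genes named were the 8 chemokines, for each tested chemokine the 3 genes of most similar pattern, and list genes that were called or are receptors. Other named genes were chosen after their values were seen. Members and lists were chosen with earlier results of these data known, so they are no independent support. Same-numbered samples were not treated as pairs. The check of the knocked-down gene and some other list genes are not reported here.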

Additional observations from a re-analysis of the deposited data

How the results depend on the processing

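Alternatives were the pseudocount (0.01 or 1), the filter, quantile and median scaling, no intensity trend, an unadjusted p threshold, the replicate block and each sample left out. Chosen after seeing the data were voom on recovered reads, leaving out replicate 2 of both groups, and keeping the 4 libraries with T cell marker reads. With 1 RPKM added, the up-regulated genes fell from 646 to 391 and the down-regulated from 335 to 161, and the cause was not tested. Without 1 sample they ran from 604 to 702 and from 308 to 363. The log2 fold change of CCL5 ran from 0.61 to 1.28 without 1 sample and was called at 1.28 without shRNA-UBC9 replicate 3.

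Deviations of same-numbered samples correlated between -0.367 and 0.0728, and 0 of 3 shRNA-NC samples correlated best with its own number. With 3 samples per group, these correlations cannot settle whether the numbers pair the samples. The highest correlation, 0.526, was between shRNA-NC replicate 1 and shRNA-UBC9 replicate 3, the libraries without T cell marker reads. The fit with the replicate number as a block called 642 up and 332 down, gave CCL5 the same 1.03 with an adjusted p of 0.0341, and changed no other call among the chemokines. In that fit the SE was 0.309 for CXCL10 and 0.304 for CXCL11, against 0.898 and 0.645 without the block. No alternative was run for CXCL9, CX3CL1 and CCL2, which were too low to test, other than the unfiltered fit, which gave CXCL9 0.29 (adjusted p = 0.527). Depth limits these genes and the control values of CXCL10, CXCL11 and CCL20, where 2 to 24 reads set the denominator.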

Other observations

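CCL2 was not alone in being listed at 0, since 35278 of all 58174 genes were at 0 in every sample. On chromosome 17, 9 genes examined between SPACA3 (start 32991847) and TMEM132E (end 34639318), namely these and ASIC2, CCL2, CCL7, CCL11, CCL8, CCL13 and CCL1, were at 0 in all 6 samples. CCT6B, further along, had 6 to 17 reads in each sample. Of the expressed genes examined outside this stretch, TMEM98 ranged from 9.81 to 10.3 RPKM in shRNA-NC and from 14.6 to 15.5 RPKM in shRNA-UBC9 (log2 fold change 0.58, adjusted p = 0.00108), and ZNF830 ranged from 7.10 to 7.88 RPKM and from 5.89 to 6.55 RPKM (log2 fold change -0.26, adjusted p = 0.0504). These genes were chosen by position after their values were seen, and other genes of the interval were not analysed here.

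The ratio of CXCL10 to CXCL11 in RPKM was 4.87, 2.60 and 1.08 in shRNA-NC replicates 1 to 3, where the counts were 2 to 24 reads, and 1.11, 2.24 and 1.22 in shRNA-UBC9 replicates 1 to 3. Where both genes were well covered, CXCL10 was thus ahead of CXCL11 by the most in shRNA-UBC9 replicate 2, the sample with the highest interferon-stimulated genes. CX3CL1 lies between CCL22 and CCL17 on chromosome 16, each of which had 1 read in all, and PLLP, the gene examined next to CCL22, was low in every sample (0.159 to 0.303 RPKM). The expressed genes examined further out, ARL2BP and CIAPIN1, had log2 fold changes of 0.06 (adjusted p = 0.532) and 0.07 (adjusted p = 0.611).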
